A study of Mus musculus with 28 samples.

Results

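The genes described here encode 7 regulators of mRNA decay, listed by name and matched to the count table among 54532 gene identifiers. They are the 3 ZFP36 family genes Zfp36, Zfp36l1 and Zfp36l2, the Regnase genes Zc3h12a and Zc3h12c, the roquin gene Rc3h1 and the HuR gene Elavl1. The rule that lists them uses no measured value, although it was written with results of these data known. Each reached 10 TPM (a level corrected for gene length and library size) in at least 1 culture, as did 8867 genes in all. RNA sequencing was performed on bone marrow-derived macrophages (BMDMs), which are macrophages grown from mouse marrow with the growth factor M-CSF, here from C57/B6JB mice. The cells were incubated with PBS as the control, with 10 µg/ml of plasma-derived von Willebrand factor (pd-VWF), a human plasma glycoprotein of primary hemostasis, or with 100 ng/ml of lipopolysaccharide (LPS), a bacterial cell wall component and TLR4 agonist. All media contained CaCl2, and each treatment lasted 3.5 h or 16 h. At each time there were 5 control, 5 VWF-treated and 4 LPS-treated cultures, 28 in all.

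Macrophages that meet an inflammatory stimulus transcribe cytokine genes within hours and then remove the cytokine mRNAs. Tristetraprolin (TTP, from Zfp36) and its relatives bind AU-rich elements in the 3′ UTR and recruit the CCR4-NOT deadenylase complex, Regnase-1 (Zc3h12a) and Regnase-3 (Zc3h12c) are endonucleases, roquin-1 (Rc3h1) binds stem-loops and recruits deadenylases, and HuR (Elavl1) binds AU-rich elements and mostly stabilizes the bound mRNA. Several of these factors act on their own transcripts. The data are transcript levels, so that neither the proteins nor the rate of mRNA decay was measured. Fewer cells expressing a gene cannot be told apart from less of its RNA in each such cell.

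AU-rich elements were looked for in the decay factors' own mRNAs, since TTP is known to bind its own transcript. The nonamer TTATTTATT was searched on the transcript strand only, in the longest annotated 3′ UTR of each gene (GENCODE M21, GRCm38). It was found in 5 of the 7 genes, against 7.63% of 8281 expressed genes with an annotated 3′ UTR, and longer UTRs hold it more often. Among expressed genes with a UTR of like length, the share was 5.07% for Zfp36, 9.42% for Zfp36l1, 9.40% for Zfp36l2, 29.2% for Rc3h1 and 17.6% for Elavl1. Zfp36, Zfp36l1, Zfp36l2 and Rc3h1 held 1 copy each, and Elavl1 held 8 copies that partly overlap. Neither Zc3h12a nor Zc3h12c held a copy, which says only that these letters were not in that UTR. The sites are shown with the nonamer in capitals and 9 bases on each side, read 5′ to 3′ on the strand of the gene, beside a site of Tnf, a reported target of TTP, which held 5 overlapping copies. Of the other TTP targets examined here, Csf2, Cxcl1, Cxcl2, Il23a and Ptgs2 also held the nonamer. Il10, Il1a, Il1b, Il6, Ccl2, Ccl3 and Ier3, which are reported targets too, did not. For Elavl1 the first of its copies is shown.
Zfp36, chr7:28376952-28376978, minus strand: atgacgactTTATTTATTgtattaaga
Zfp36l1, chr12:80108168-80108194, minus strand: actgttggaTTATTTATTttagaaatt
Zfp36l2, chr17:84184915-84184941, minus strand: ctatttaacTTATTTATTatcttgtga
Rc3h1, chr1:160970044-160970070, plus strand: ctttactcaTTATTTATTgagatgagg
Elavl1, chr8:4285789-4285815, minus strand: tcatgaaaaTTATTTATTtatttattt
Tnf, chr17:35199683-35199709, minus strand: tattatttaTTATTTATTtattattta
The sites began 589 bases after the stop codon in Zfp36, 1404 bases after it in Zfp36l1, 821 bases after it in Zfp36l2, 2256 bases after it in Rc3h1 and 3794 bases after it in Elavl1. In Zfp36, Zfp36l1, Zfp36l2 and Rc3h1 the nonamer stood alone, while in Elavl1 and Tnf it lay in a run of repeats. A match is a description of the letters and no evidence of binding.

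Each gene lies on its own chromosome and all are protein coding. In GRCm38 coordinates Zfp36 (ENSMUSG00000044786) lies at chr7:28376784-28380253, Zfp36l1 (ENSMUSG00000021127) at chr12:80107754-80113013 and Zfp36l2 (ENSMUSG00000045817) at chr17:84183931-84187947, all on the minus strand. Zc3h12a (ENSMUSG00000042677) lies at chr4:125118423-125127840, Zc3h12c (ENSMUSG00000035164) at chr9:52111344-52168572 and Elavl1 (ENSMUSG00000040028) at chr8:4285382-4325413, also on the minus strand. Rc3h1 (ENSMUSG00000040423) lies at chr1:160906418-160974978 on the plus strand. For Zfp36l1, 55.9% of the exon bases overlap the antisense lincRNA Gm26669 and 47.57% of the 100-base windows of its transcripts recur in that gene or in a pseudogene, so its count is uncertain where the counting ignored strand. Gm26669 itself was counted at no more than 0.228 CPM in any culture, and for the other 6 genes at most 3.60% of the exon bases overlap another gene.

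Total counts per culture ranged from 41131209 to 77699206. All 7 macrophage markers examined were present in every culture, at 4.69 TPM or more, while markers of B, T and NK cells, neutrophils and erythroid cells stayed at or below 2.36 TPM. Of markers of other cells, Col1a1 of fibroblasts ranged from 1.37 to 81.1 TPM, Ccr7 of dendritic cells reached 12.9 TPM and Pecam1 of endothelial cells 4.55 TPM. The other markers of these cells stayed lower. Pdgfra of fibroblasts reached 1.57 TPM, Flt3 and Zbtb46 of dendritic cells 0.067 and 1.23 TPM, and Cdh5 of endothelial cells 2.10 TPM. The mean of Ccr7 was 9.54 TPM with LPS at 16 h and at most 0.8145 TPM in the other groups. The part of such cells in the results was not tested. Levels are given as CPM, each count relative to the total of its library, with TMM factors, which scale each library by the bulk of its genes. These factors were 0.735 to 0.848 in LPS-treated cultures and 0.945 to 1.18 in the others. With library size alone, the median log2 difference of all genes between VWF and LPS was 0.44 at 16 h and 0.30 at 3.5 h, against 0.00 and 0.02 with TMM. Replicate 5 of the control at 16 h stood apart from the other 4 cultures for several of the genes, and each comparison with that group was repeated without it. Replicate 4 of LPS at 16 h had the lowest TMM factor, 0.735, and stood apart from its group in the counts of all genes. Its chi-square per degree of freedom was 265 to 469 with the other LPS-treated cultures at 16 h, against 46.4 to 94.0 among those.

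The expression of Zfp36, the Regnase genes and Zfp36l2 differed between VWF and LPS at 16 h. Compared to LPS, Zfp36 was 8.90-fold, Zc3h12c 3.16-fold and Zc3h12a 2.79-fold lower in VWF-treated BMDMs, whereas Zfp36l2 was 2.34-fold higher. A gene passed the test at an adjusted p below 0.05 and was differentially expressed if its log2 fold change also exceeded 1 in size. Of 6 genes tested, 4 were differentially expressed, where 25.5% of all 7574 genes tested were so called. The same 4 genes passed the test, as did 60.5% of all genes tested. Of them 1 was higher with VWF, as were 29.5% of all genes, and 3 were lower, as were 31%. The groups did not overlap for these 4 of the 6 genes tested, as against 51.6% of all genes tested. Neither did they overlap for Rc3h1, which was not among the genes tested.

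In VWF-treated cultures at 16 h, Zfp36 was at 58.7, 73.1, 52.9, 96.6 and 108 CPM. In LPS-treated cultures it was at 692, 701, 545 and 841 CPM. Every LPS-treated culture lay far above every VWF-treated one. The log2 fold change of VWF against LPS was −3.15 ± 0.24 (SE; adjusted p = 2.43e-06, edgeR's quasi-likelihood test with Benjamini-Hochberg adjustment, n = 5 and 4). Control cultures at 16 h were at 72.9, 66.6, 60.9, 84.5 and 134 CPM, so that the levels with VWF and control overlapped. Against control the log2 fold change of Zfp36 was −0.11 ± 0.25 for VWF (adjusted p = 0.813, edgeR) and 3.09 ± 0.25 for LPS (adjusted p = 6.33e-06, edgeR). Both values share the same control cultures, and without replicate 5 of the control they were 0.11 and 3.32.

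Zfp36l2, which encodes a relative of TTP with the same type of zinc finger domain, showed the opposite order. VWF-treated cultures at 16 h were at 181, 179.6, 207, 159 and 208 CPM. LPS-treated cultures were at 87.0, 77.2, 97.8 and 58.9 CPM. The highest LPS-treated culture thus lay below the lowest VWF-treated one, and the log2 fold change of Zfp36l2 was 1.22 ± 0.16 (adjusted p = 8.25e-05, edgeR). Controls at 16 h were at 167, 176, 182, 221 and 94.0 CPM, and the last of these, replicate 5, lay among the LPS-treated cultures. Zfp36l2 fell by 1.03 on the log2 scale with LPS against control (SE 0.24, adjusted p = 0.00512, edgeR), while with VWF the difference was 0.14 ± 0.20 (adjusted p = 0.675, edgeR). Without replicate 5 of the control, these differences were −1.18 and −0.01.

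For Zfp36l1, the third family gene, no difference between VWF and LPS was detected at 16 h. It was at 15.9, 19.8, 16.1, 19.8 and 17.5 CPM with VWF. With LPS it was at 15.5, 16.2, 11.4 and 20.4 CPM. The groups overlapped, and the log2 fold change was 0.17 with a 95% interval of −0.19 to 0.53 (adjusted p = 0.389, edgeR). Both agonists lowered Zfp36l1 against the control at 16 h, in which the 5 cultures were at 29.0, 36.2, 31.0, 28.3 and 65.6 CPM. The log2 fold change was −1.10 ± 0.22 for VWF (adjusted p = 0.00379, edgeR) and −1.22 ± 0.29 for LPS (adjusted p = 0.00589, edgeR). Without control replicate 5, the culture at 65.6 CPM, the values were −0.82 and −0.93, and both still passed the test. With library size scaling, Zfp36l1 was higher with VWF than with LPS by 0.62 (adjusted p = 0.00228, edgeR).

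The ZFP36 family was therefore made up differently at 16 h. On the TPM scale, Zfp36 made up 87.4% ± 3.25 (SD, n = 4) of the summed level of the 3 genes in LPS-treated cultures and 27.3% ± 6.52 (n = 5) in VWF-treated cultures, against 28.4% ± 9.01 (n = 5) in control. Zfp36l2 made up 65.3% ± 6.80 with VWF, 10.3% ± 3.47 with LPS and 56.5% ± 14.6 in control. The sum of the 3 genes was 471 ± 25.2 TPM with LPS, 227 ± 34.9 TPM with VWF and 247 ± 43.2 TPM in control. At 3.5 h, by contrast, Zfp36 made up 91.9% ± 1.88 of the family with VWF and 96.0% ± 0.784 with LPS, against 42.7% ± 4.52 in control.

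**Figure D1:**
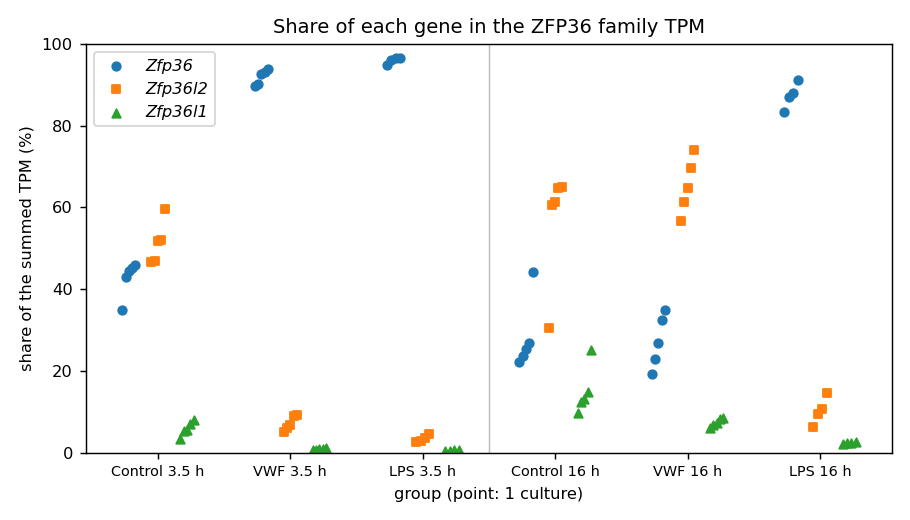
Share of Zfp36, Zfp36l2 and Zfp36l1 in the summed TPM of the ZFP36 family (y axis, percent) in each culture of the 6 groups (x axis), 1 point for each culture and gene. Zfp36 leads with both agonists at 3.5 h and with LPS at 16 h, whereas Zfp36l2 leads in every VWF-treated culture at 16 h and in 4 of 5 control cultures.

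Zc3h12a, which encodes the endonuclease Regnase-1, was at 30.2, 29.1, 34.6, 20.4 and 24.7 CPM in VWF-treated cultures at 16 h. LPS-treated cultures were at 100.3, 74.9, 92.1 and 43.2 CPM. Controls were at 10.3, 10.6, 12.4, 13.7 and 4.80 CPM. The 3 groups did not overlap, with VWF between control and LPS, although replicate 4 of LPS was near the VWF-treated cultures. Between VWF and LPS the log2 fold change of Zc3h12a was −1.48 ± 0.24 (adjusted p = 0.000494, edgeR). Against control, Zc3h12a rose by 1.41 ± 0.26 with VWF (adjusted p = 0.00235, edgeR) and by 2.94 ± 0.33 with LPS (adjusted p = 5.22e-05, edgeR), or by 1.23 and 2.76 without control replicate 5.

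Zc3h12c, the gene of Regnase-3, was at 9.62, 9.23, 13.0, 7.05 and 8.76 CPM with VWF at 16 h. With LPS it was at 33.6, 25.7, 35.3 and 26.4 CPM. The LPS-treated cultures were all higher, and the log2 fold change of VWF against LPS was −1.66 ± 0.18 (adjusted p = 3.02e-05, edgeR). Zc3h12c passed the filter on low values at 16 h only through LPS-treated cultures, where it is high. Controls were at 7.22, 8.13, 6.03, 7.65 and 5.12 CPM, which overlapped with VWF. It was not tested between VWF and control at 16 h, since no culture of either group reached 10 TPM. With edgeR's own filter (filterByExpr) that difference was 0.53 ± 0.18 (adjusted p = 0.0542, edgeR), and LPS raised Zc3h12c by 2.18 ± 0.17 against control (adjusted p = 4.07e-06, edgeR).

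Rc3h1 was below 10 TPM in every VWF-treated and LPS-treated culture at 16 h and was not in the test. Its levels were 30.7, 27.1, 31.2, 30.2 and 28.8 CPM with VWF. With LPS they were 23.4, 21.7, 24.1 and 19.0 CPM. The VWF-treated cultures were all higher, by a smaller margin than for the genes above. With filterByExpr the log2 fold change was 0.40 ± 0.09 (adjusted p = 0.00476, edgeR). Control cultures were at 31.99, 33.2, 34.0, 33.6 and 51.1 CPM, above both agonists. The difference from control was −0.26 ± 0.13 with VWF (adjusted p = 0.202, edgeR, filterByExpr) and −0.62 ± 0.17 with LPS (adjusted p = 0.0115, edgeR, filterByExpr).

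Elavl1, the gene of the mRNA-stabilizing protein HuR, was at 65.1, 66.1, 56.3, 79.4 and 64.4 CPM with VWF at 16 h. With LPS it was at 49.6, 58.6, 49.1 and 82.9 CPM. Replicate 4 of LPS was the highest of the 9 cultures while the other LPS-treated cultures were at or near the low end. The log2 fold change was 0.15 with a 95% interval of −0.23 to 0.52 (adjusted p = 0.475, edgeR). It was 0.34 without LPS replicate 4 (adjusted p = 0.0266, edgeR) and 0.60 with library size scaling (adjusted p = 0.00278, edgeR). Against the control at 16 h, at 64.0, 58.9, 54.7, 56.9 and 97.0 CPM, Elavl1 differed by −0.01 ± 0.16 with VWF and by −0.10 ± 0.22 with LPS, and neither passed (adjusted p = 0.984 and 0.721, edgeR). With library size scaling, the difference with LPS was −0.64 and passed the test (adjusted p = 0.00594, edgeR).

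Counted against the control at 16 h, 2 of 5 genes tested passed with VWF, namely Zfp36l1 and Zc3h12a, where 27.7% of 7798 genes did. With LPS 5 of 6 passed, all but Elavl1, where 53.7% of 7994 genes did. The groups did not overlap for 3 of the 7 genes with VWF (Zfp36l1, Zc3h12a and Rc3h1), against 24.6% of genes tested. With LPS they did not for 5 of the 7 (these and Zfp36 and Zc3h12c), against 47.9%. Rc3h1 is counted here although it was not among the genes tested in either comparison.

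**Figure D2:**
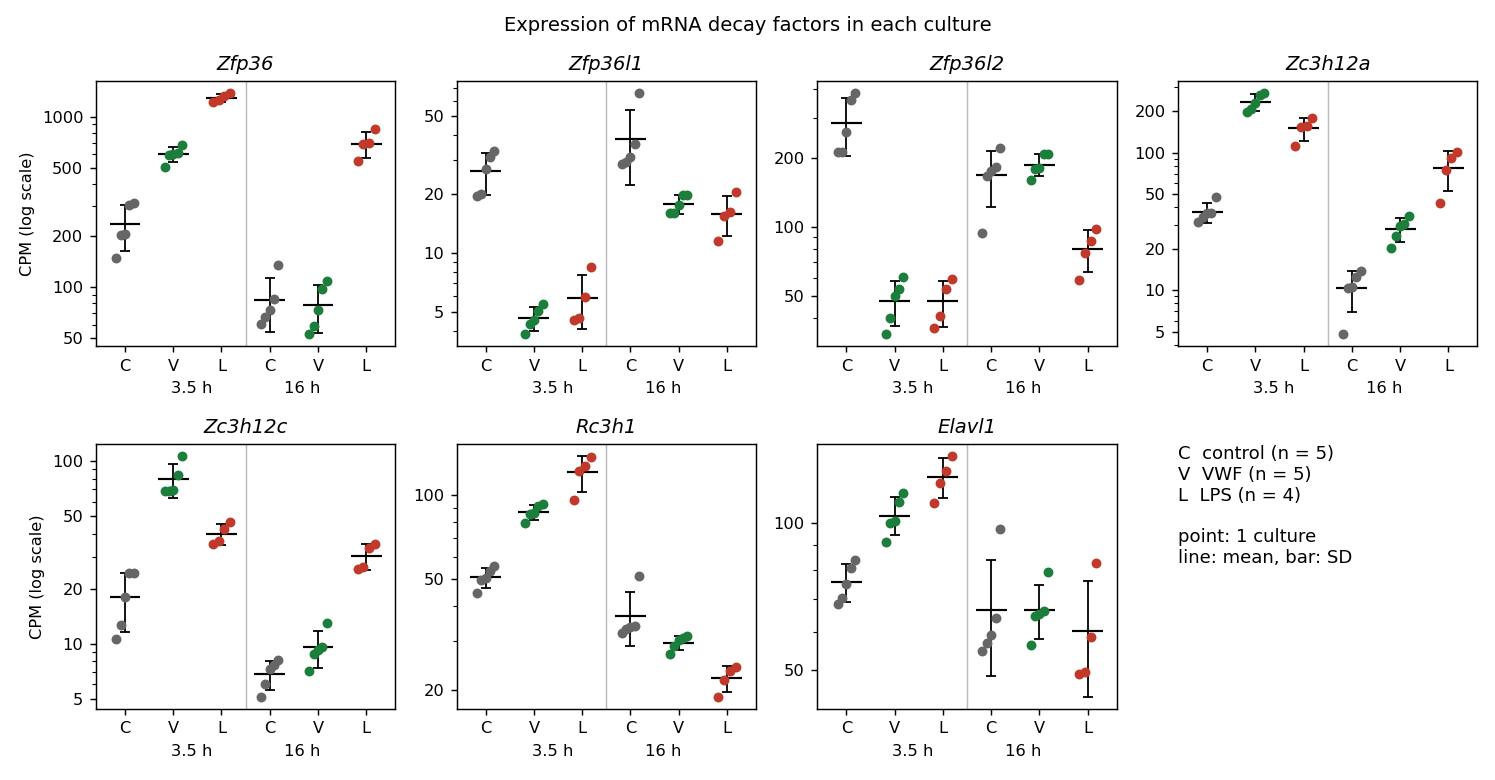
CPM of the 7 genes (y axis, log scale) in each culture (points) of the control (C), VWF (V) and LPS (L) groups at 3.5 h and 16 h, with the mean (line) and SD (bar). At 16 h the LPS-treated cultures lie above all VWF-treated cultures for Zfp36, Zc3h12a and Zc3h12c and below them for Zfp36l2 and Rc3h1.

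Levels of different genes were compared on the TPM scale. In VWF-treated cultures at 16 h the order of mean levels was Zfp36l2 (149 ± 28.5 TPM), Zfp36 (61.9, from 46.4 to 90.7 by culture), Zc3h12a (27.2 ± 7.26), Elavl1 (17.6 ± 0.642), Zfp36l1 (16.5 ± 1.40), Rc3h1 (7.29 ± 0.817) and Zc3h12c (3.93 ± 1.201). The ranges of Zc3h12a and Elavl1 overlapped, as did those of Elavl1 and Zfp36l1, while other neighbours in that order did not. In LPS-treated cultures at 16 h the order was Zfp36 (412 ± 28.6 TPM), Zc3h12a (57.9 ± 23.9), Zfp36l2 (48.4 ± 15.6), Elavl1 (11.8 ± 1.48), Zfp36l1 (10.9 ± 1.24), Zc3h12c (9.35 ± 2.61) and Rc3h1 (4.12 ± 0.930). There Zfp36 and Rc3h1 stood clear of their neighbours, as did Zfp36l2 from Elavl1. Zfp36 thus led the order with LPS and Zfp36l2 led it with VWF and in control at 16 h (144 ± 52.7 TPM), where its range overlapped with that of Zfp36.

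At 3.5 h both agonists changed all 7 genes against control with TMM factors, and for every gene the direction was the same with either agonist. Under library size scaling, Elavl1 did not pass with LPS. All 7 passed the test with VWF, as did 43.6% of 8200 genes tested, and with LPS, as did 65.7% of 8190. In both comparisons the groups did not overlap for any of the 7 genes, as was the case for 35.5% of genes tested with VWF and 56.3% with LPS. Zfp36, Zc3h12a, Zc3h12c, Rc3h1 and Elavl1 rose and Zfp36l1 and Zfp36l2 fell. The comparisons share the 5 control cultures. Zfp36l1 passed the filter on low values at 3.5 h only through the control, where it is high.

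Zfp36 rose from 204, 202, 148, 312 and 301 CPM in control to 506, 614, 607, 679 and 597 CPM with VWF. With LPS it was at 1256, 1223, 1313 and 1375 CPM. The groups followed each other without overlap, and the log2 fold change against control was 1.39 ± 0.19 for VWF (adjusted p = 9.12e-05, edgeR) and 2.49 ± 0.19 for LPS (adjusted p = 6.98e-07, edgeR). Between VWF and LPS the log2 fold change was −1.08 ± 0.09 (adjusted p = 6.34e-06, edgeR), or −0.80 under library size scaling, which passed the test but not the limit of 1 for differential expression. Of the 6 genes tested between VWF and LPS at 3.5 h, 5 passed, where 50.2% of 7500 genes did, and 2 were differentially expressed, where 11.4% of all genes tested were. The groups did not overlap for 4 of the 6 genes tested, against 39.9% of all genes tested. They overlapped for Zfp36l1, which was not tested.

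The Regnase genes were higher with VWF than with LPS at 3.5 h, the reverse of their order at 16 h. Zc3h12a was at 263, 228, 206, 198 and 271 CPM with VWF. It was at 112, 179, 154 and 156 CPM with LPS. All VWF-treated cultures were above all LPS-treated ones, and controls were at 31.4 to 47.6 CPM. For VWF against LPS the log2 fold change was 0.66 ± 0.15 (adjusted p = 0.00403, edgeR), and against control it was 2.68 ± 0.14 with VWF (adjusted p = 3.55e-08, edgeR) and 2.04 ± 0.15 with LPS (adjusted p = 4.02e-07, edgeR).

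Zc3h12c was at 84.2, 68.2, 69.8, 68.9 and 107 CPM with VWF at 3.5 h. It was at 35.0, 46.6, 42.3 and 36.3 CPM with LPS. The groups were again separate, over controls of 10.6 to 24.5 CPM. The log2 fold change of VWF against LPS was 1.01 ± 0.16 (adjusted p = 0.000369, edgeR), which lies at the limit of 1 for differential expression and dropped below it in 5 of 7 other settings. Against control, Zc3h12c rose by 2.17 ± 0.25 with VWF (adjusted p = 2.30e-05, edgeR) and by 1.17 ± 0.24 with LPS (adjusted p = 0.00124, edgeR).

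Zfp36l2 fell to like levels with both agonists at 3.5 h. Controls were at 213, 212, 258, 384 and 359 CPM. Cultures with VWF were at 53.7, 34.1, 40.2, 49.8 and 60.2 CPM, and those with LPS at 36.2, 59.5, 40.8 and 53.5 CPM. The LPS-treated cultures lay within the range of the VWF-treated ones, and both groups lay below all controls. The log2 fold change of Zfp36l2 against control was −2.55 ± 0.22 with VWF (adjusted p = 1.99e-06, edgeR) and −2.56 ± 0.23 with LPS (adjusted p = 2.00e-06, edgeR). Between the agonists it was 0.03 with a 95% interval of −0.40 to 0.45 (adjusted p = 0.917, edgeR).

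Zfp36l1 also fell at 3.5 h, from 19.5 to 33.1 CPM in control to 3.85 to 5.47 CPM with VWF and 4.52 to 8.49 CPM with LPS. Against control its log2 fold change was −2.46 ± 0.18 with VWF (adjusted p = 5.01e-07, edgeR) and −2.12 ± 0.23 with LPS (adjusted p = 1.24e-05, edgeR). It was below 10 TPM with both agonists and so was not tested between them. With filterByExpr that log2 difference was −0.38, with a 95% interval of −0.80 to 0.04 (adjusted p = 0.134, edgeR).

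Rc3h1 and Elavl1 rose as well. Rc3h1 was at 44.7 to 55.7 CPM in control, 79.2 to 92.9 CPM with VWF and 95.8 to 137 CPM with LPS at 3.5 h. The groups did not overlap, and the log2 fold change against control was 0.81 ± 0.08 with VWF (adjusted p = 5.64e-06, edgeR) and 1.27 ± 0.11 with LPS (adjusted p = 2.20e-06, edgeR). Elavl1 was at 68.2 to 84.1 CPM in control, 91.4 to 115 CPM with VWF and 109.5 to 137 CPM with LPS, with overlap between the agonists. Its log2 fold change against control was 0.48 ± 0.08 with VWF (adjusted p = 0.000643, edgeR) and 0.73 ± 0.10 with LPS (adjusted p = 5.70e-05, edgeR). With library size scaling, the rise of Elavl1 with LPS was 0.21 and did not pass (adjusted p = 0.0600, edgeR). Between VWF and LPS, Rc3h1 differed by −0.45 ± 0.11 (adjusted p = 0.00566, edgeR) and Elavl1 by −0.24 ± 0.09 (adjusted p = 0.0478, edgeR). Under library size scaling neither passed, at −0.16 (adjusted p = 0.269, edgeR) for Rc3h1 and 0.05 (adjusted p = 0.631, edgeR) for Elavl1.

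**Figure D3:**
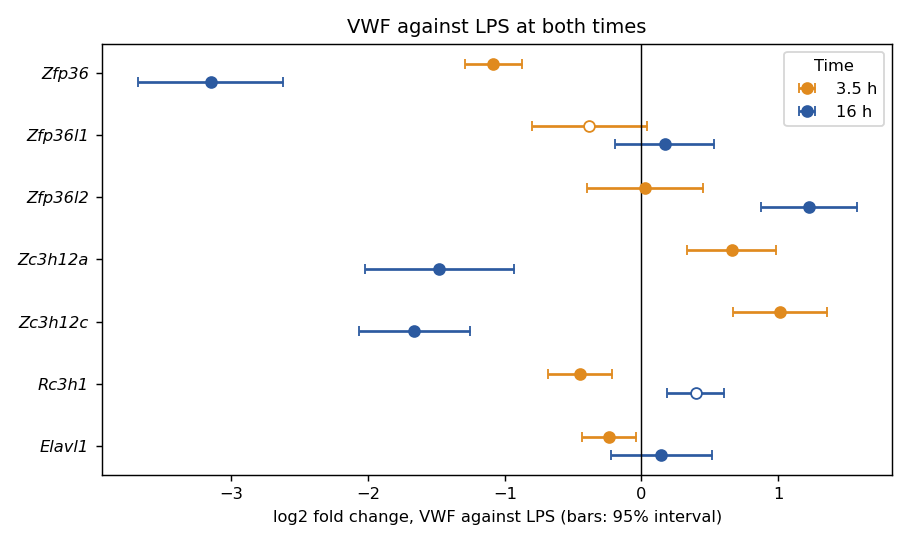
Log2 fold change of VWF against LPS (x axis) with its 95% interval (bars) for the 7 genes at 3.5 h (orange) and 16 h (blue), where open points come from the fit with filterByExpr because the gene was below 10 TPM. Zc3h12a and Zc3h12c lie to the right of 0 at 3.5 h and to the left of it at 16 h.

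Next, the change of the VWF-LPS difference between 3.5 h and 16 h was tested as an interaction. It passed for 5 of the 7 genes, against 52.7% of 8217 genes tested. The interaction was −2.70 ± 0.25 for Zc3h12c (adjusted p = 1.44e-07, edgeR), −2.16 ± 0.30 for Zc3h12a (adjusted p = 1.02e-05, edgeR) and −2.09 ± 0.25 for Zfp36 (adjusted p = 2.64e-06, edgeR) on the log2 scale. It was 1.17 ± 0.25 for Zfp36l2 (adjusted p = 0.000938, edgeR) and 0.86 ± 0.14 for Rc3h1 (adjusted p = 6.19e-05, edgeR). The Regnase genes thus changed sign between the times, while Zfp36 was lower with VWF at both times and by more at 16 h. The interaction did not pass for Zfp36l1 (0.48 ± 0.27, adjusted p = 0.151, edgeR) or Elavl1 (0.36 ± 0.20, adjusted p = 0.140, edgeR).

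Within VWF-treated BMDMs all 7 genes changed from 3.5 h to 16 h, as did 68% of 7927 genes tested. Zc3h12a and Zc3h12c fell by 3.06 ± 0.16 and 3.05 ± 0.19 on the log2 scale, Zfp36 by 2.94 ± 0.20, Rc3h1 by 1.55 ± 0.07 and Elavl1 by 0.63 ± 0.09. Zfp36l1 and Zfp36l2 rose by 1.95 ± 0.12 and 1.98 ± 0.15. For each gene the VWF-treated groups at 3.5 h and 16 h did not overlap, where 54.5% of genes tested did not. Zc3h12c and Rc3h1 passed the filter on low values only through 3.5 h, and Zfp36l1 only through 16 h, where each is high.

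Within LPS-treated BMDMs 6 of the 7 genes passed, against 60.9% of 6987 genes tested. Zfp36 fell by 0.87 ± 0.13 and Zc3h12a by 0.92 ± 0.25, and the difference for Zc3h12c was −0.38 ± 0.15 (adjusted p = 0.0517, edgeR). Rc3h1 fell by 2.43 ± 0.15 and Elavl1 by 1.02 ± 0.18, while Zfp36l1 rose by 1.45 ± 0.26 and Zfp36l2 by 0.78 ± 0.20. The groups did not overlap for 5 of the 7 genes, where 55.2% of genes tested did not, and the exceptions were Zfp36l2 and Zc3h12c. Rc3h1 passed the filter on low values only through LPS at 3.5 h, and Zfp36l1 only through LPS at 16 h, where each is high.

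Several genes also differed between control cultures at 3.5 h and at 16 h, which received no agonist. In control cultures 5 of the 7 genes passed between 16 h and 3.5 h, against 41.4% of 8333 genes tested. Zc3h12a fell by 1.84 ± 0.24, Zfp36 by 1.47 ± 0.27, Zc3h12c by 1.39 ± 0.25, Zfp36l2 by 0.76 ± 0.24 and Rc3h1 by 0.45 ± 0.14. The groups did not overlap for 3 of the 7 genes, Zfp36, Zc3h12a and Zc3h12c, where 37.4% of genes tested did not. Zc3h12c and Rc3h1 passed the filter on low values only through the control at 3.5 h, where they are high. The differences for Zfp36l1 (0.56 ± 0.26, adjusted p = 0.111, edgeR) and Elavl1 (−0.18 ± 0.16, adjusted p = 0.394, edgeR) did not pass. Without control replicate 5 at 16 h, Elavl1 passed as well, at −0.37 (adjusted p = 0.00400, edgeR).

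Since the controls moved too, the effect of each agonist over control was compared between the times. For VWF this interaction passed for 6 of the 7 genes, against 32.4% of 8660 genes tested. It was negative for Zc3h12c (−1.68 ± 0.32), Zfp36 (−1.48 ± 0.34), Zc3h12a (−1.24 ± 0.29) and Rc3h1 (−1.11 ± 0.16) and positive for Zfp36l2 (2.72 ± 0.30) and Zfp36l1 (1.38 ± 0.30), each opposite in sign to the effect at 3.5 h. Elavl1 was at −0.47 ± 0.19 (adjusted p = 0.0668, edgeR).

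For LPS the interaction passed for 5 of the 7 genes, against 48.8% of 8748 genes tested. It was positive for Zfp36l2 (1.56 ± 0.34), Zc3h12c (1.03 ± 0.31) and Zc3h12a (0.93 ± 0.37) and negative for Rc3h1 (−1.96 ± 0.20) and Elavl1 (−0.82 ± 0.25). The call for Zc3h12a (adjusted p = 0.0451, edgeR) was lost in 4 of 7 other settings and in 12 of 18 fits without 1 culture. For Zfp36 the interaction was 0.62 ± 0.34 (adjusted p = 0.142, edgeR), or 0.86 (adjusted p = 0.0175, edgeR) without control replicate 5 at 16 h. For Zfp36l1 it was 0.91 ± 0.39 (adjusted p = 0.0637, edgeR), or 1.204 (adjusted p = 0.00427, edgeR) without that culture.

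**Figure D4:**
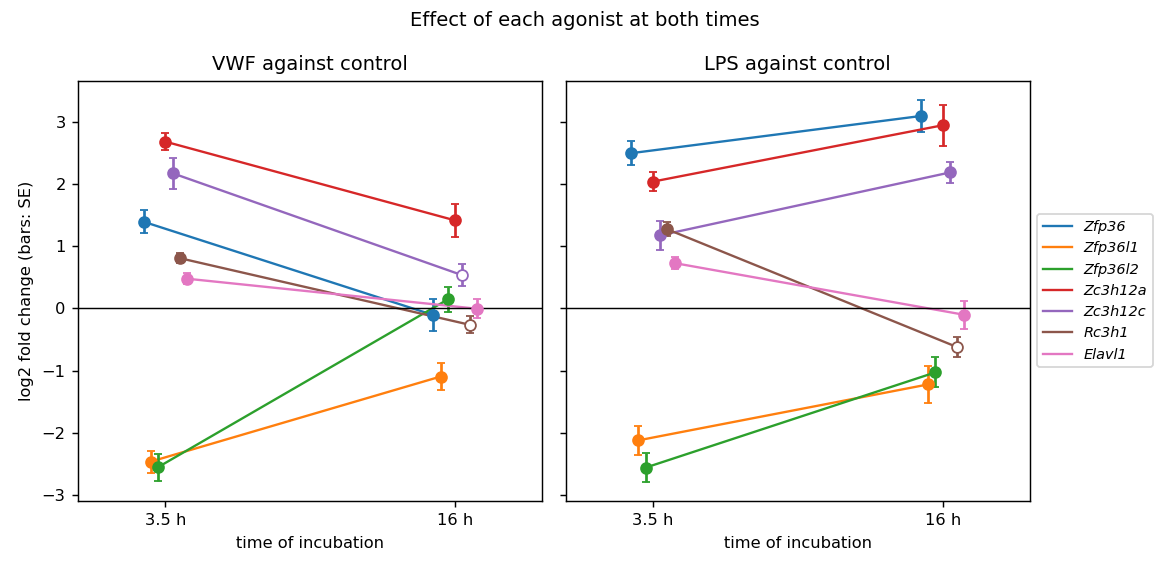
Log2 fold change against control (y axis, bars are SE) at 3.5 h and 16 h (x axis) for VWF (left) and LPS (right), 1 line for each gene, with open points from the fit with filterByExpr. With VWF the lines run towards 0, while with LPS those of Zfp36, Zc3h12a and Zc3h12c lie above 2 at 16 h, that of Zc3h12c from 1.17 at 3.5 h.

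The rest of the decay machinery was examined between VWF and LPS at 16 h, where 29.5% of all genes tested were higher with VWF and 31% lower. Of 13 deadenylase subunits and adaptors tested, 3 were higher with VWF, 3 were lower and 7 did not pass, and their median log2 fold change was 0.07, against 0.00 for all genes. Most were subunits of CCR4-NOT, such as Cnot6, a catalytic subunit, which was higher by 0.46 ± 0.10. The adaptors Btg2 and Tob1, which recruit the deadenylase and restrain growth, were lower, at −1.57 ± 0.13 and −0.49 ± 0.18. The mean level of Btg2 at 16 h was 11.8 ± 1.88 CPM for VWF against 35.1 ± 3.13 CPM for LPS.

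Of 6 decapping and 5′ decay genes tested, 1 was higher and 2 were lower with VWF, with a median of −0.08. The decapping enzyme gene Dcp2 and its activator Dcp1a were lower, at −1.04 ± 0.10 and −1.05 ± 0.19, and Dcps, which degrades the released cap, was higher at 0.98 ± 0.16. Dcp1a passed the filter only through LPS-treated cultures. The RNA exosome degrades RNA from the 3′ end. Of its 10 genes tested, 6 were higher with VWF, none was lower and 4 did not pass, and the median was 0.53. Exosc5, Exosc8 and Exosc2 were higher by 1.95 ± 0.23, 1.66 ± 0.13 and 1.597 ± 0.148, and 5 of the 10 passed the filter only through VWF-treated cultures, where they are high.

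Of 13 other RNA-binding regulators tested, 5 were higher with VWF, 4 were lower and 4 did not pass, with a median of 0.13. Arid5a, whose protein stabilizes Il6 mRNA, was lower by far, at −3.49 ± 0.11. Its mean level at 16 h was 8.62 ± 0.140 CPM for VWF against 97.0 ± 14.8 CPM for LPS, and it passed the filter only through LPS. Zc3h12d, the gene of Regnase-4, and N4bp1, the gene of an endonuclease, were also lower, at −1.51 ± 0.24 and −1.28 ± 0.10.

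Of 12 tested genes for kinases, phosphatases and adaptors that act on TTP or Regnase-1, 8 were lower with VWF and 2 were higher, against 31% and 29.5% of all genes tested. The other 2 did not pass, and the median was −0.87. Dusp1, a phosphatase that switches off p38, was at 33.8 ± 7.55 CPM with VWF, 663 ± 35.1 CPM with LPS and 63.7 ± 6.26 CPM in control at 16 h. Its log2 fold change of VWF against LPS was −4.29 ± 0.17 (adjusted p = 5.05e-08, edgeR). Malt1, a protease that cleaves Regnase-1, was lower at −3.02 ± 0.22, and Mapkapk2, the kinase that phosphorylates TTP, at −1.33 ± 0.12. Malt1 passed the filter only through LPS.

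All 12 tested transcripts of the list reported as TTP targets were lower with VWF than with LPS at 16 h. Their median was −4.04, and all 12 exceeded the limit of 1 in size. Of all 7574 genes tested, 31% were lower, and 1095 were lower and beyond that limit. The list of 14 includes Zfp36 itself, and 5 of the 12 passed the filter only through LPS, where they are high. Il6 and Il1a, which encode inflammatory cytokines, had log2 fold changes of −7.66 ± 0.33 and −6.64 ± 0.40. Ptgs2, which encodes a prostaglandin synthase, was at −6.32 ± 0.60. Tnf was at 50.04 ± 2.52 CPM with VWF, 319 ± 59.5 CPM with LPS and 27.0 ± 4.98 CPM in control. Its log2 fold change of VWF against LPS was −2.67 ± 0.12 (adjusted p = 1.00e-07, edgeR).

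All 8 tested of 10 reported targets of Regnase-1 or roquin were lower as well, against 31% of all genes tested. Their median was −2.70. Among them are Tnf, Il6 and Ptgs2, which the TTP list holds too, and Zc3h12a itself, and 3 passed the filter only through LPS. Il12b, which encodes a subunit of interleukin 12, was at −3.74 ± 0.75 on the log2 scale.

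At 3.5 h the targets did not all follow Zfp36. Of the 12 TTP targets tested, 8 were lower with VWF than with LPS, Zfp36 itself among them, 2 were higher and 2 did not pass, where 24% of all genes tested were lower and 26.3% higher. Their median was −0.91, against 0.02 for all genes. The higher ones were the chemokine genes Cxcl1 and Cxcl2, at 1.08 ± 0.19 and 1.14 ± 0.11, and the ones that did not pass were Tnf (−0.16 ± 0.09, adjusted p = 0.165, edgeR) and Il1b (−0.19 ± 0.24, adjusted p = 0.533, edgeR). These 4 genes are named after their values were seen. Of the 8 targets of Regnase-1 or roquin, 2 were higher, namely Il12b and Zc3h12a itself, 2 were lower and 4 did not pass.

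**Figure D5:**
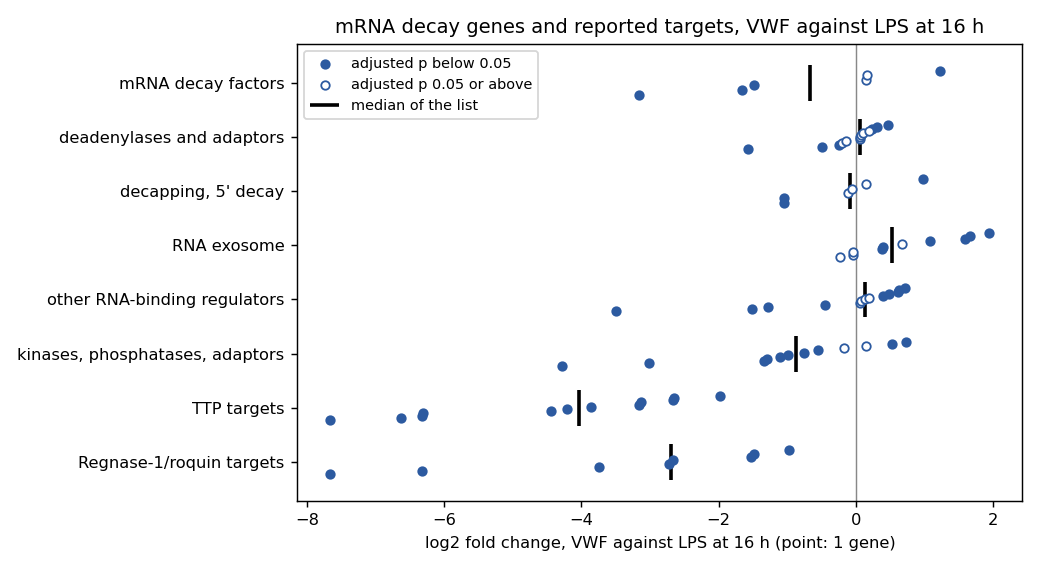
Log2 fold change of VWF against LPS at 16 h (x axis) for each tested gene of the decay factors, the rest of the decay machinery and the reported targets (rows), with filled points where the adjusted p was below 0.05 and a black line at the median of the list. Both target lists lie wholly to the left of 0, while the exosome genes lie mostly to its right.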

How the data were processed

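Paired-end reads of 150 bases were mapped to GRCm38 and quantified with STAR by the authors, who deposited whole-number read counts per gene for 28 cultures with no normalization or filter. No source used here gives the STAR version, annotation, strand setting or handling of multiply mapped reads. Groups and replicate numbers came from the labels. The labels number the cultures as biological replicates but do not say whether these came from separate mice, so that p-values measure the spread between cultures.

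TPM was computed from counts and exon lengths of GENCODE M21, which holds 54495 of the 54532 identifiers, and CPM with TMM factors over all cultures. Genes at 10 TPM in at least 1 culture of a comparison were tested with edgeR 4.0.16 (quasi-likelihood test, robust, R 4.3.3) on the groups compared, with Benjamini-Hochberg adjustment over all genes tested. This follows the filter and thresholds of the study, which used DESeq2. Interactions used the 4 groups involved. SE is the log2 fold change divided by the root of F, and 95% intervals use the t distribution of the fit. The script was tested on simulated data.

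All 7 genes were named in every comparison, with the 3 largest changes of each list that passed between VWF and LPS at 16 h and the 3 most correlated genes of each. The symbol Pat1b of the decapping list was not matched. The members and lists were chosen with earlier results of these data known. Alternatives were DESeq2 1.42.0, median-of-ratios factors, library size, filterByExpr, no filter, a joint fit of all 6 groups, a block for the replicate number, Spearman correlation, and each culture left out in turn. The meaning of a replicate number is not stated by the labels. Cultures with the same number deviated together, with each correlation above 0.1, only between VWF and LPS at 16 h, where the 4 pairs gave 0.16 to 0.78, so the numbers were taken as pairs there from the data alone. The values given for that comparison are nevertheless those of the fit without pairs. The block changed no call of the 7 genes there, and each gene tested had a smaller SE with it. With the block the log2 fold change was −3.33 ± 0.09 for Zfp36 and −1.40 ± 0.11 for Zc3h12a. No culture duplicated another of its own group (chi-square per degree of freedom at least 17.1 over 52 pairs). Cultures of different groups were not compared in this way. Counting error is small at these depths: the lowest total was 41131209 counts.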

Additional observations from a re-analysis of the deposited data

Results flagged for a closer look

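Replicate 5 of the control at 16 h stood apart from the other 4 cultures of its group at 65.6 CPM for Zfp36l1, 51.1 CPM for Rc3h1 and 97.0 CPM for Elavl1. Each gene was examined in each group, 42 in all, and chance alone flags a culture in about 1 in 20 of these. The 3 values flagged were all of this culture. Its TMM factor was 0.945, whereas the other control cultures at 16 h had at least 1.17. The part of this culture in the results was measured by leaving it out, which turned the Zfp36 effect of VWF at 16 h from −0.11 to 0.11 with neither value passing the test.

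The effect of VWF against control differed between 16 h and 3.5 h, by the interaction test, for Zfp36 (−1.48), Zfp36l1 (1.38), Zfp36l2 (2.72), Zc3h12a (−1.24), Zc3h12c (−1.68) and Rc3h1 (−1.11), as log2 differences. The effect of LPS differed for Zfp36l2 (1.56), Zc3h12a (0.93), Zc3h12c (1.03), Rc3h1 (−1.96) and Elavl1 (−0.82). The difference between VWF and LPS changed with time for Zfp36 (−2.09), Zfp36l2 (1.17), Zc3h12a (−2.16), Zc3h12c (−2.70) and Rc3h1 (0.86). For Zfp36l2, Zc3h12a, Zc3h12c and Rc3h1 all 3 interactions passed the test. The 3 interactions share cultures, so that passing all of them is no separate support. The LPS interaction of Zc3h12a, at an adjusted p of 0.0451 (edgeR), was not called in every refit.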

How the results depend on the processing

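Between VWF and LPS at 16 h, the calls of Zfp36, Zfp36l2, Zc3h12a and Zc3h12c held in all 7 other settings and in each fit without 1 culture. Without LPS replicate 4, 5205 genes passed in that comparison in place of 4586. Over all comparisons 79 results of the 7 genes were refitted 1486 times: 1400 kept direction and side of the threshold, 38 lost the call, 27 gained it and 21 turned. None of the turned values passed the test in the refit. Among them, Elavl1 between VWF and LPS at 3.5 h had passed in the main fit. Between VWF and LPS at 3.5 h, 3 genes passed under library size scaling in place of 5, and 1 was differentially expressed in place of 2 with DESeq2, library size scaling, filterByExpr, no filter, median-of-ratios factors and the replicate block, or 1 to 2 without 1 culture (1 without LPS replicate 1 or 4 or VWF replicate 1 or 5); the gene lost was Zfp36 under library size scaling and Zc3h12c otherwise. Without 1 culture, 1 to 2 genes were differentially expressed between VWF and control at 16 h (1 without control replicate 5, where Zfp36l1 was at −0.82), 3 to 6 passed between the control times (3 without replicate 1 of 16 h), and 2 to 5 were differentially expressed for the LPS interaction (5 without LPS replicate 4 of 16 h). With the replicate block 3 genes passed between the control times. Uncalled values that turned were Zfp36l2 between VWF and LPS at 3.5 h (−0.0349 with filterByExpr, −0.0246 with no filter, −0.0669 with the replicate block, −0.0906 to 0.155 without 1 culture) and Elavl1 between VWF and control at 16 h (0.0488 with filterByExpr, 0.0636 with no filter, 0.0169 with the replicate block, −0.0686 to 0.162 without 1 culture). Elavl1 between LPS and control at 16 h was at 0.0418 with the replicate block and −0.309 to 0.0727 without 1 culture. At 16 h between VWF and control, Zfp36 was at −0.25 to 0.11 and Zfp36l2 at −0.00696 to 0.268 without 1 culture. Elavl1 between VWF and LPS at 3.5 h was at 0.0479 under library size scaling and lost its call in 3 other settings and in 6 fits without 1 culture. In the other comparisons same-numbered cultures were not taken as pairs, since not every pair deviated together and the lowest correlation lay between −0.67 and −0.15. Other pairs did, as with VWF against control at 3.5 h, where 4 of 5 exceeded 0.1, so pairing there is not excluded. The replicate block ended the calls of Zfp36l2 (adjusted p = 0.0633, edgeR) and Rc3h1 (adjusted p = 0.0645, edgeR) between the control times. The cause of these changes was not tested.

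Under library size scaling 71.1% of genes differentially expressed between VWF and LPS at 16 h were higher with VWF, against 43.3% with TMM, and at 3.5 h 68.8% against 41.2%. Against control these shares were 48.8% in place of 62.4% for VWF at 3.5 h, 24.7% in place of 52.1% for LPS at 3.5 h and 26.0% in place of 55.2% for LPS at 16 h, and for the VWF interaction 51.8% in place of 40.5% and the VWF-LPS interaction 56.6% in place of 42.8%. Genes passing the test numbered 7435 with filterByExpr and 7228 with no filter in place of 4586 between VWF and LPS at 16 h, 8269 and 8368 in place of 5384 for LPS against control at 3.5 h, 8262 and 8166 in place of 5392 for VWF over time, and 7255 and 6969 in place of 4253 for LPS over time, where more genes are tested. For VWF against control at 16 h they were 3291 with filterByExpr and 3282 without control replicate 5 in place of 2163, and for LPS 6759 with filterByExpr in place of 4293. Differentially expressed genes between VWF and LPS numbered 3897 with filterByExpr and 4242 with no filter in place of 1932 at 16 h, and 1776 and 1942 in place of 856 at 3.5 h.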

Other observations

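Over the 28 cultures, which share groups and libraries, the genes whose log2 CPM followed each decay factor most closely were ranked among 8866 others by Pearson correlation. Zc3h12a ran with Pde4b (0.99), Relb (0.99) and Pgs1 (0.98), where Relb encodes an NF-κB subunit, and with Zc3h12c at 0.96. Zc3h12c ran with Psd (0.97), Rest (0.97) and Sqstm1 (0.96). Zfp36 ran with Mmp13 (0.97), a collagenase gene, Rnf4 (0.96) and Zfp800 (0.96). Zfp36l2 ran with Lpar6 (0.94), Etv5 (0.93) and Tmem206 (0.93), and Zfp36l1 with Rassf3 (0.96), Engase (0.96) and Zdhhc9 (0.95). Rc3h1 ran with Map3k5 (0.97), Nol10 (0.96) and Usp7 (0.96), and Elavl1 with Rsl24d1 (0.96), Smu1 (0.96) and Strap (0.95). Between the decay factors themselves the correlation was lowest for Zfp36l1 and Zc3h12a, at −0.92, and it was −0.76 for Zfp36 and Zfp36l2. The ranking depended on the measure: by Spearman correlation, 4 of the 21 genes named above (Psd, Map3k5, Rsl24d1 and Strap) stayed among the first 3, and for 4 of the 7 decay factors none did. These values describe the 6 groups and carry no test.

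The phosphatase gene Dusp1 was at 251 ± 37.8 CPM with LPS at 3.5 h and at 663 ± 35.1 CPM at 16 h, a log2 rise of 1.43 ± 0.12 (adjusted p = 1.24e-05, edgeR), while Mapkapk2 fell by 1.58 ± 0.14 and Malt1 by 1.68 ± 0.20 in the same cultures. At 16 h the log2 fold change of Dusp1 with VWF against control was −0.92 ± 0.14 (adjusted p = 0.000607, edgeR).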
